A study of Mus musculus with 6 samples.

Results

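The genes described here are the retinoblastoma pocket protein genes Rb1, Rbl1 and Rbl2 and the E2F transcription factor genes E2f1, E2f3, E2f4, E2f5, E2f6, E2f7 and E2f8. They were taken as the probe sets of the deposited array table whose single annotated symbol is 1 of these names. All 10 genes were found, on 11 probe sets, among 19937 genes that had such a probe set; E2f3 had a pair of probe sets and every other gene had 1. Mouse embryonic stem cells were profiled on 6 single-colour Affymetrix arrays, 3 labelled wild type and 3 labelled Trim71 KD. The knockdown cells had received 3 siRNAs against Trim71 with Dharmafect1 and were collected 72 h later. The treatment text also names a non-targeting siRNA, while the control labels read wild-type and the series title speaks of parental cells, so the labels do not settle whether the control cells were transfected. No genetic alteration, strain or line is named for either group. The Trim71 transcript was lowered, not deleted, and nothing in the labels ties the replicates to separate cultures, so p-values measure only the spread between these arrays, which may be technical.

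Pocket proteins bind E2F factors and hold E2F target genes silent until cyclin-dependent kinases phosphorylate them late in G1. E2f1 and E2f3 encode activators, E2f4 and E2f5 encode factors that repress together with pocket proteins, E2f6 encodes a repressor that lacks pocket binding, and E2f7 and E2f8 encode atypical repressors that bind DNA without a dimerisation partner. Embryonic stem cells have a short G1 phase and keep much of their pocket protein phosphorylated. Trim71, an RNA-binding protein of embryonic stem cells also called Lin41, represses messenger RNAs that it binds. Rbl1, Rbl2 and E2f7 are reported Trim71 targets. Such reports may rest in part on these same arrays, so the direction of these genes here is not independent evidence.

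Several E2F and pocket protein genes are themselves controlled through E2F sites, so the bases upstream of their starts are shown for the members that rose and whose window held the E2F consensus. RefSeq start sites of build GRCm38.p6 were matched by symbol for 7 of the 10 genes, at 8 starts; Rb1, E2f4 and E2f5 were not matched. The consensus was searched on both strands as TTTCCCGC, TTTCGCGC, TTTGCCGC or TTTGGCGC in the 250 bases before each start. It was found once each for Rbl1, E2f3 and E2f7, and in 1.86% of all 32851 start windows. The Rbl1 window is chr2:157204535-157204784 on the minus strand and its match begins 18 bases before the start. The E2f3 window is chr13:29986064-29986313 on the minus strand, with the match beginning 11 bases before the start. The E2f7 window is chr10:110745189-110745438 on the plus strand, with the match beginning 198 bases before the start. The sequences run 5′ to 3′ on the strand of the gene, with the match in capitals.
Rbl1: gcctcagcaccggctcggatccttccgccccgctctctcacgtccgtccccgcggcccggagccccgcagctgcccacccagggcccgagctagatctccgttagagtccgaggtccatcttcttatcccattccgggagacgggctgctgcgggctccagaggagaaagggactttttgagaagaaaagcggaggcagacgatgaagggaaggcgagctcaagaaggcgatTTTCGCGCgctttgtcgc
E2f3: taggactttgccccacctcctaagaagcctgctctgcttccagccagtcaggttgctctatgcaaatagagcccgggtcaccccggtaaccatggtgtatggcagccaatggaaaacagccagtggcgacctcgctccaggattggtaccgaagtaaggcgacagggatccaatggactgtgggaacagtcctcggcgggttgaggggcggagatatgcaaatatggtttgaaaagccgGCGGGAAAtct
E2f7: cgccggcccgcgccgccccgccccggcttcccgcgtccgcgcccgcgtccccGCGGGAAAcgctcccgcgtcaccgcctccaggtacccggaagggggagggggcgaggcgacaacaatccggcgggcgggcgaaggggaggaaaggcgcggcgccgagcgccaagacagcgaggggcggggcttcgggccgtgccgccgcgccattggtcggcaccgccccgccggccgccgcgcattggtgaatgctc

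The match read TTTCGCGC in Rbl1 and GCGGGAAA, the reverse complement of TTTCCCGC, in E2f3 and E2f7. The windows of Rbl2, E2f6, E2f8 and the other start of E2f3 did not hold these letters, which says nothing of sites of other spelling or at starts not used here. The start held for E2f1 may be an internal one, so its window is not read. The cell cycle homology region TTTGAA, through which the DREAM complex of pocket proteins and MuvB acts, was searched on both strands in the same windows. It lay 201 bases before the start of Rbl2, 23 before that of E2f3 and 20 before that of E2f8, and in 16.0% of all windows. The E2F and TTTGAA matches of the E2f3 window did not overlap. A match is a run of letters and not a measured binding site.

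All 6 arrays held embryonic stem cell RNA by their markers, with 10 of 10 listed stem cell genes measured at a median log2 level of 11.81 in controls. Their mean was 11.47 to 11.50 on control arrays and 11.56 to 11.61 on knockdown arrays. Of the 10, 2 were called higher, Zfp42 (log2 fold change 0.25) and Fgf4 (0.31), and 1 lower, Lin28a (−0.26). Over all genes 3.39% were higher and 2.15% lower. The 9 measured feeder fibroblast genes had a mean log2 level of 5.92 to 6.05 on control arrays and 5.81 to 5.99 on knockdown arrays. Of these 9, 1 was called, Acta2, lower (−0.70). Of the other lineage lists, primitive endoderm held 0 called of 8. Neural progenitors held 1 higher of 6, Nes (0.27), and 1 lower, Pax6 (−0.76), and trophectoderm 1 higher of 8, Tfap2c (0.53). The part of these lists in the results was not tested. In bulk RNA a change in the share of a cell type and a change in RNA per cell cannot be told apart. The median log2 level of an array was 6.26 to 6.31, and knockdown array 3 stood apart with an upper quartile of 8.42 against 8.32 to 8.35 and values that departed further from those of its own group (root mean square 0.11, against 0.07 to 0.09 for the others). Results without it are therefore also given for the called members, for E2f6 and for some of the list counts. Trim71 itself read 10.48, 10.50 and 10.51 on the control arrays and 9.00, 8.95 and 8.98 on the knockdown arrays, a log2 fold change of −1.52 ± 0.045 (SE, n = 3 per group, limma adjusted p = 2.8e-05).

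Of the 10 pocket protein and E2F genes, 4 rose in the knockdown cells and 0 fell. Rbl1, E2f3, E2f7 and Rb1 rose, each by less than 1.5-fold. A gene was called when its adjusted p in limma, a linear model fitted over all 19937 genes, was under 0.05. By that rule 3.39% of all genes were higher and 2.15% lower. That balance moved with scaling, from 675 higher and 428 lower genes to 779 and 763 after a repeated quantile normalization and 527 and 616 with arrays centred on their medians. The mean signal of the members lay above that of 55% (Rbl2) to 95.8% (E2f4) of all genes. In a fit kept to the 9968 genes above the median signal, 1124 genes were higher and 766 lower, with 5 members higher. At an unadjusted p under 0.05 over all genes, 6 members were higher and 0 lower, against 11.0% and 8.08% of all genes. The log2 fold change was above 0 for 9 of the 10 members, with a median of 0.19 and a range from −0.10 to 0.40, beside 10324 of 19937 genes above 0 and a median of 0.00 over all genes. The knockdown values lay above all control values for 8 members and below them for 1, where 14.7% and 10.8% of all genes did so. The 4 calls did not hold with every array left out, as given with each gene.

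**Figure D1:**
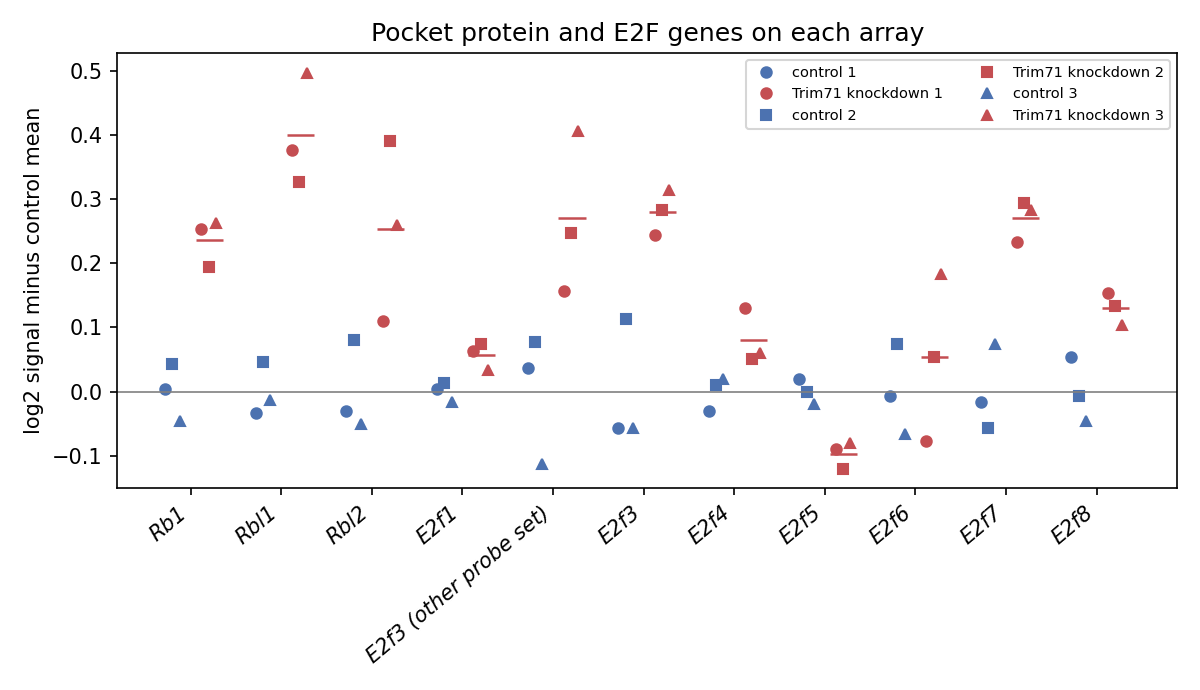
Log2 signal of each pocket protein and E2F probe set on each array, minus the mean of the 3 control arrays of that probe set (vertical axis, log2 units). Blue marks are control arrays and red marks knockdown arrays, with 1 shape per replicate number and a red line at the knockdown mean. The knockdown marks sit above all control marks for 8 genes, below them for E2f5 and among them for E2f6.

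Rbl1 encodes p107, a pocket protein that pairs mainly with E2F4 and is itself made as cells enter the cycle. Its log2 signal was 8.26, 8.34 and 8.28 on the control arrays and 8.67, 8.62 and 8.79 on the knockdown arrays. The groups did not overlap, with a gap of 0.28 between the highest control and the lowest knockdown value, and knockdown array 3 was the highest. The mean went from 8.29 ± 0.046 to 8.69 ± 0.083 (SD, n = 3 each). The log2 fold change was 0.40 (95% confidence interval 0.26 to 0.53), a 1.32-fold rise, with an adjusted p of 0.0115 in limma. A larger log2 fold change was seen for 1.15% of all genes. Without knockdown array 3 the log2 fold change was 0.35 (adjusted p = 0.0158). The call was lost without control array 1 (adjusted p = 0.068) and without control array 3 (adjusted p = 0.0536), and also without variance moderation (adjusted p = 0.0629).

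Rb1 encodes the retinoblastoma protein, the pocket protein that restrains activator E2Fs. It read 8.87, 8.91 and 8.82 on the control arrays and 9.12, 9.06 and 9.13 on the knockdown arrays. All knockdown values were higher, by a gap of 0.15. Rb1 rose by 0.24 on the log2 scale (0.12 to 0.35), 1.18-fold, with an adjusted p of 0.0363. Leaving out any 1 of the 6 arrays ended the call, with log2 fold changes between 0.21 and 0.26 and adjusted p-values from 0.0524 without knockdown array 3 to 0.142 without control array 1. With arrays centred on their medians the adjusted p was 0.0559.

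Rbl2 encodes p130, the pocket protein of the DREAM complex in resting cells. It read 6.95, 7.06 and 6.93 on the control arrays and 7.09, 7.37 and 7.24 on the knockdown arrays. The groups were parted by 0.03, and the 3 knockdown values spread more widely (SD 0.14) than the controls (SD 0.075). The log2 fold change of 0.26 (0.07 to 0.44) did not pass, with an adjusted p of 0.126. Its estimate was close to that of Rb1, and its standard error was larger, at 0.080 against 0.050. Rbl2 passed when the test was kept to genes whose mean signal was above the median (adjusted p = 0.0468) and with array weights (adjusted p = 0.0453). In these settings the share of all tested genes called also rose, from 5.53% to 19.0% and 10.9%. With each array left out the adjusted p of Rbl2 in limma was 0.0629 to 0.332.

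Among the activators, E2f3 rose and E2f1 did not pass. E2f1, an activator of S phase genes, read 9.38, 9.39 and 9.36 on the control arrays and 9.44, 9.45 and 9.41 on the knockdown arrays. The groups were parted by 0.02, and the log2 fold change was 0.05 (−0.05 to 0.16, adjusted p = 0.598). The interval leaves room for a rise of up to 1.11-fold. On its probe set with the higher mean, E2f3 read 9.01, 9.18 and 9.01 on the control arrays and 9.31, 9.35 and 9.38 on the knockdown arrays. Control array 2 was the highest control and still lay 0.13 below the lowest knockdown array. E2f3 rose by 0.28 on the log2 scale (0.14 to 0.42), 1.21-fold, with an adjusted p of 0.0426.

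The other E2f3 probe set read 7.73, 7.77 and 7.58 in controls and 7.85, 7.94 and 8.10 in knockdown cells, again without overlap. It gave a log2 fold change of 0.27 against 0.28. In a fit over all 34760 probe sets neither passed, with adjusted p-values of 0.237 and 0.114. The mean of both probe sets gave 0.27 (adjusted p = 0.0591). The E2f3 call was also lost with arrays centred on their medians (adjusted p = 0.0557) and when any 1 array was left out, where adjusted p-values ran from 0.0555 without control array 2 to 0.171 without control array 1, and the value without knockdown array 3 was 0.0708. The gene makes more than 1 isoform from separate starts, and these probe sets were not assigned to isoforms here.

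The repressors that work with pocket proteins, E2f4 and E2f5, did not pass, and neither did E2f6, which lacks pocket binding. E2f4, the main partner of p107 and p130, read 10.68, 10.72 and 10.73 on the control arrays and 10.84, 10.76 and 10.77 on the knockdown arrays. Its groups were parted by 0.03, with a log2 fold change of 0.09 (−0.03 to 0.20, adjusted p = 0.411). E2f5, a related partner of p130, was the single member below 0. It read 9.53, 9.51 and 9.49 in controls and 9.42, 9.39 and 9.43 in knockdown cells, with all knockdown values lower, by a gap of 0.06. Its log2 fold change was −0.10 (−0.20 to 0.01, adjusted p = 0.296). E2f6, which recruits a Polycomb repressive complex, read 8.50, 8.58 and 8.44 in controls and 8.43, 8.56 and 8.69 in knockdown cells. These values overlapped, and the log2 fold change of 0.06 (−0.12 to 0.23, adjusted p = 0.768) turned to −0.01 without knockdown array 3.

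Of the atypical repressors, E2f7 rose and E2f8 did not pass. E2f7 read 8.52, 8.48 and 8.61 on the control arrays and 8.77, 8.83 and 8.82 on the knockdown arrays. The groups were parted by 0.16, and the 3 knockdown values lay close together (SD 0.032). E2f7 rose by 0.27 on the log2 scale (0.15 to 0.40), 1.21-fold, with an adjusted p of 0.0295. The call held without knockdown array 3 (adjusted p = 0.0459) and was lost when any of the other 5 was left out, at 0.0576 and 0.11 without knockdown arrays 1 and 2 and at 0.131, 0.129 and 0.0552 without control arrays 1, 2 and 3. E2f8, which pairs with E2F7 and overlaps with it in function, read 9.26, 9.20 and 9.16 in controls and 9.36, 9.34 and 9.31 in knockdown cells. All knockdown values were higher, by a gap of 0.06, and the log2 fold change was 0.13 (0.02 to 0.25, adjusted p = 0.189).

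**Figure D2:**
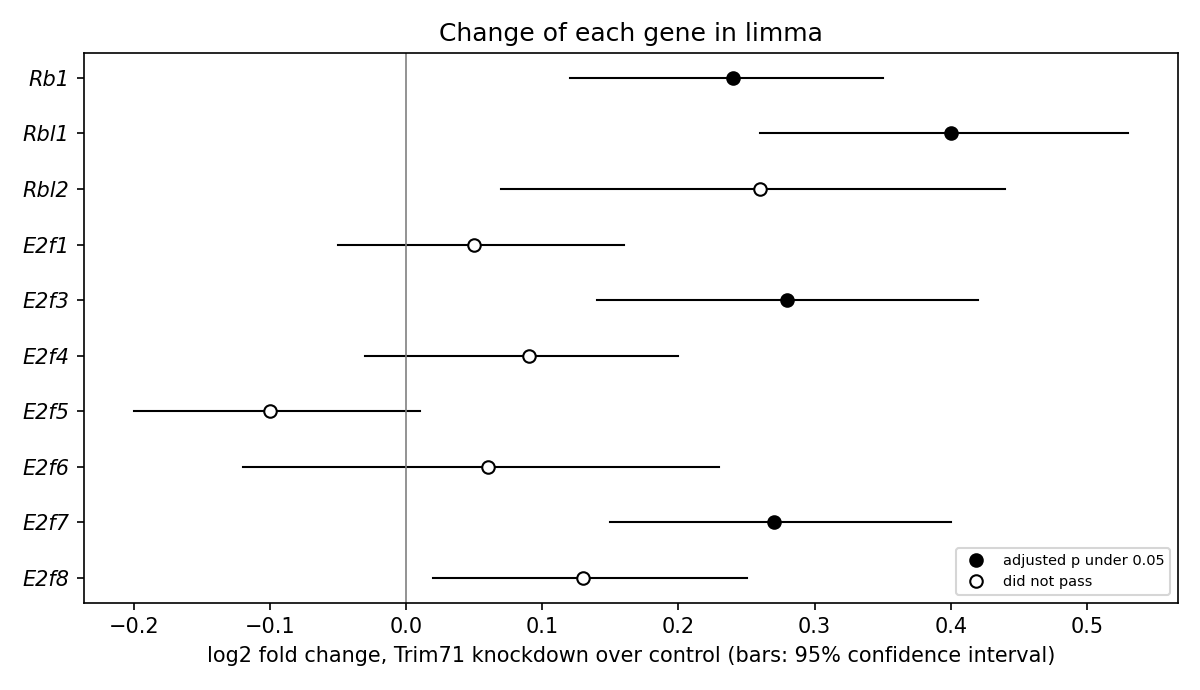
Log2 fold change of each gene in knockdown over control cells (horizontal axis) with its 95% confidence interval from limma, for the probe set used for the gene; filled circles mark an adjusted p under 0.05. Rbl1 has the highest estimate at 0.40, the intervals of E2f1, E2f4, E2f5 and E2f6 include 0, and those of Rbl2 and E2f8 lie above 0 without passing the adjustment.

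Whether related members changed by different amounts was tested on the difference of their log2 values within each array, for 6 pairs. Groups of 3 arrays cannot give an exact two-sided permutation p below 0.1, so no pair could pass, and the size and its interval are what is reported. Each interval rests on an ordinary t distribution and the pooled spread within groups, without variance moderation. The intervals are not adjusted over the 6 pairs and do not stand in for a passed test. Rbl1 changed by 0.16 more than Rb1 (95% confidence interval 0.05 to 0.27), with no overlap between groups (exact p = 0.1, adjusted over 6 pairs 0.2). E2f3 changed by 0.22 more than E2f1 (0.07 to 0.38, exact p = 0.1, adjusted 0.2), and E2f4 by 0.18 more than E2f5 (0.08 to 0.29, exact p = 0.1, adjusted 0.2), also without overlap. For E2f7 against E2f8 the difference was 0.14 (−0.05 to 0.33, exact p = 0.2, adjusted 0.3). For Rbl1 against Rbl2 it was 0.14 (−0.15 to 0.44, exact p = 0.4, adjusted 0.48), at 0.25 without knockdown array 2 and 0.08 without knockdown array 1. The overlap came from knockdown array 2 alone, at 1.25 against 1.28 to 1.36 in controls, so leaving that array out parts the groups by construction. For Rb1 against Rbl2 the difference was −0.02 (−0.29 to 0.26, exact p = 0.9, adjusted 0.9). The groups overlapped in these 3 pairs with all arrays in. Equal changes of both genes lie within the 3 intervals over all arrays, which does not show that the changes were alike.

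The cyclins and kinases that phosphorylate pocket proteins held 3 higher genes and 0 lower of 10 measured, with a list median of 0.02. Over all genes 3.39% were higher and 2.15% lower. Ccnd2, which encodes cyclin D2, a G1 partner of CDK4 and CDK6, read 10.12, 10.07 and 10.05 in controls and 10.98, 10.81 and 10.84 in knockdown cells. It rose by 0.79 ± 0.059 (SE, adjusted p = 0.00171), more than any member, and was called with each array left out. Ccnd3, encoding cyclin D3, rose by 0.29 (adjusted p = 0.0219), and Ccne2, an E2F target that encodes a cyclin E, by 0.44 (adjusted p = 0.0327). With an array left out Ccnd3 was called in 2 of 6 fits (without knockdown array 1 or 3) and Ccne2 in 0 of 6, with adjusted p-values up to 0.0873 and 0.0913. Ccnd1 was at 0.16 and did not pass (adjusted p = 0.12). The inhibitors of these kinases held 0 higher and 1 lower of 6 measured, with Cdkn1a not measured. Cdkn1b, which encodes p27, read 9.09, 9.04 and 9.06 in controls and 8.56, 8.48 and 8.72 in knockdown cells, with a log2 fold change of −0.48 ± 0.067 (SE, adjusted p = 0.0103). It was called in 5 of the 6 fits with an array left out and reached an adjusted p of 0.06 without control array 1.

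Of the 35 measured E2F targets that act at G1/S, 5 were higher and 0 lower, where 3.39% of all genes were higher and 2.15% lower, with a list median of 0.00, the same as over all genes. The 5 were Ccne2, Ung, which encodes a uracil DNA glycosylase, at 0.31 (adjusted p = 0.029), Dck, a deoxynucleoside kinase, at 0.28 (adjusted p = 0.0378), Mybl2 at 0.28 (adjusted p = 0.0207) and Chaf1a, a subunit of the chromatin assembly factor CAF-1, at 0.20 (adjusted p = 0.0479). The count fell to 1 without knockdown array 3, to 2 without knockdown array 1 and to 0 without knockdown array 2 or any control array, and it was 3 with arrays centred on their medians. The count of lower genes was 1 without knockdown array 3 and 1 after a repeated quantile normalization. The other 30 did not pass, and 17 of the 35 were above 0. For the G2/M targets of the DREAM complex 0 of 19 passed in limma, 3 had an unadjusted p under 0.05, where 19.0% of all genes did, and the list median was 0.03. Ube2c, a ubiquitin-conjugating enzyme of mitosis, was at 0.18 (adjusted p = 0.0674) and the mitotic kinase gene Aurka at 0.14 (adjusted p = 0.189). The list of apoptosis genes induced by E2F1 had 7 measured genes, among them the cyclin gene Ccne1, and 0 passed in limma. Of the 7, 3 had an unadjusted p under 0.05. These were Apaf1, a caspase activator, at −0.15, Bcl2l11 at −0.12 and Trp73, which encodes p73, at 0.12.

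For the lists that follow, the shares over all genes were 3.39% higher, 2.15% lower and 19.0% at an unadjusted p under 0.05 in limma. Among the protein partners, 1 of 9 genes of the DREAM and MuvB complexes was higher, Mybl2, and 0 were lower. Mybl2 was also the 1 of these 9 with an unadjusted p under 0.05. Mybl2 encodes the B-Myb subunit that joins MuvB in S phase. It read 10.97, 10.97 and 11.03 in controls and 11.22, 11.28 and 11.31 in knockdown cells, and kept its call without knockdown array 1 or 3, reaching an adjusted p of up to 0.104 in the other 4 fits with an array left out. The dimerisation partner genes Tfdp1 at −0.06 and Tfdp2 at 0.14 and the activator gene E2f2 at −0.08 did not pass, and 1 of the 3 had an unadjusted p under 0.05. Of 12 corepressors and binding partners of RB, 1 was higher, Jarid2, a subunit of Polycomb repressive complex 2, at 0.20 (adjusted p = 0.0439). Jarid2 lost the call when any 1 array was left out, with adjusted p-values up to 0.161, and with arrays centred on their medians. Of the 12, 4 had an unadjusted p under 0.05, which were Jarid2, Kdm5a at 0.15, Ctbp2 at 0.11 and, below 0, Ctbp1 at −0.16. Of 13 genes of the complex that E2F6 joins, 0 passed in limma and 1, the dimerising factor gene Max at 0.14, had an unadjusted p under 0.05. Of 5 germline genes that E2F6 silences, Smc1b, a meiotic cohesin subunit, rose by 0.51 ± 0.091 (SE, adjusted p = 0.0215). Stag3, also of meiotic cohesin, was at 0.18 (adjusted p = 0.333). Tuba3b was at −0.32 (adjusted p = 0.161) on a low signal, with a mean log2 level of 4.02 in controls and 3.70 in knockdown cells. Smc1b and Tuba3b were the 2 of these 5 with an unadjusted p under 0.05. Smc1b lost its call without knockdown array 2, control array 1 or control array 3, with adjusted p-values up to 0.0907. Of 10 genes that control the turnover or phosphorylation state of pocket proteins and E2Fs, 0 passed in limma and 2 had an unadjusted p under 0.05, Mdm2 at 0.22 (adjusted p = 0.0597) and Skp2, an F-box protein gene, at 0.14 (adjusted p = 0.139).

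**Figure D3:**
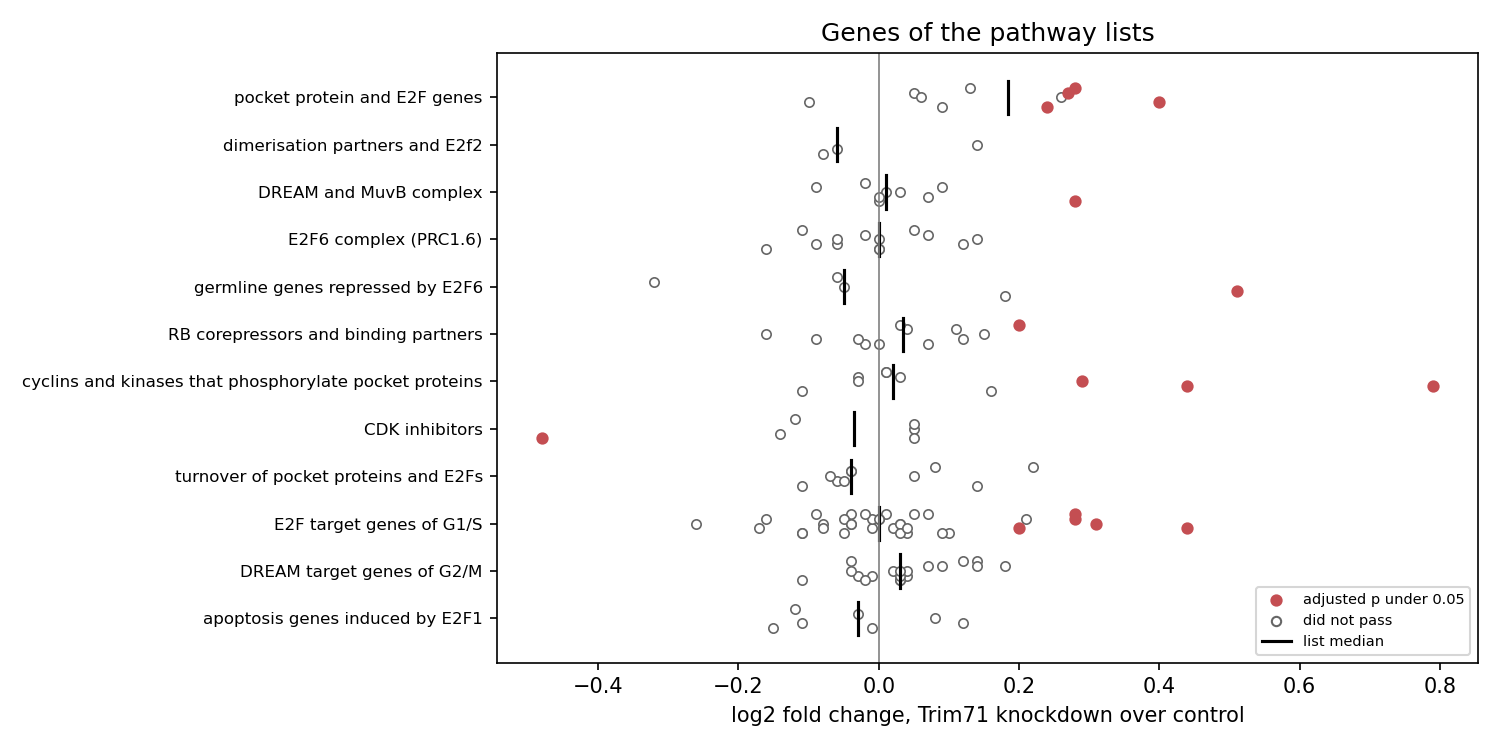
Log2 fold change in knockdown over control cells (horizontal axis) of each measured gene, in 1 row per list, with the pocket protein and E2F genes on top; red circles passed an adjusted p under 0.05 in limma, open circles did not, and black bars are list medians. The median of the pocket protein and E2F genes is 0.19, and those of the other 11 lists lie between −0.06 and 0.04.

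Over all 11 lists, 9 of 117 measured genes were higher and 1 lower, 7.69% and 0.855%, beside 3.39% and 2.15% of all genes. The list genes were not matched to all genes by signal. In the fit kept to genes above the median signal, 1124 of 9968 were higher and 766 lower, and the lists were not counted there. The total of 10 called list genes was 7 where each array was centred on its median, and 13 where the quantile step was repeated. With an array left out it went to 1 without control array 1, 2 without control array 3 or knockdown array 2, 3 without control array 2 and 6 without knockdown array 3. Ccnd2 was the 1 of these 10 genes that was called in every fit with an array left out.

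The profile over the 6 arrays was compared between the reported Trim71 targets and other named genes, by the root mean square difference after each gene's own mean was subtracted. The 3 genes nearest to Rbl1 were Mfsd12 (0.015), Slc37a3 (0.022) and Ccnc, which encodes cyclin C (0.024), with log2 fold changes of 0.39, 0.38 and 0.40. Nearest to E2f7 were Cmtm3 (0.016), Mfap2 (0.021) and Grik5 (0.022), with log2 fold changes of 0.27, 0.25 and 0.25. Nearest to Rbl2 were Slc2a5 (0.034), Cdh4 (0.043) and Scai (0.05), with log2 fold changes of 0.22, 0.28 and 0.31, of which Slc2a5 did not pass (adjusted p = 0.143). These are descriptions over 6 arrays and 17213 candidate genes, since predicted genes (Gm and Rik names), olfactory and vomeronasal receptors and microRNA genes were left out.

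**Figure D4:**
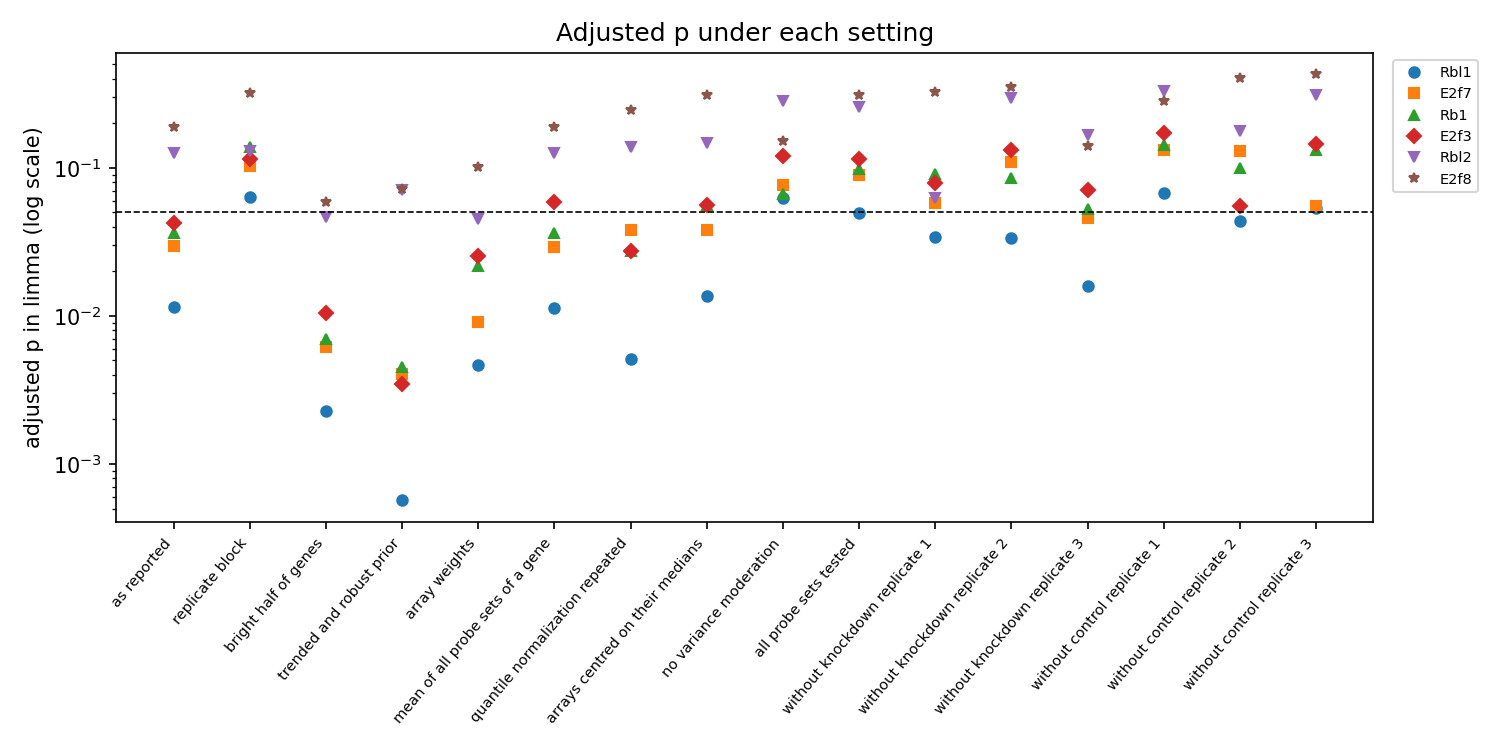
Adjusted p of 6 genes in limma (vertical axis, log scale) as reported and under 15 other settings (horizontal axis); the dashed line is 0.05. Rbl1 lies under the line in 11 of the 15 settings, E2f7 in 7, Rb1 in 5, E2f3 in 4, Rbl2 in 2 and E2f8 in 0.

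Several of those settings change the test and not the estimate, so the estimate is read here from the 6 fits with an array left out. There the log2 fold change lay between 0.35 and 0.43 for Rbl1, 0.21 and 0.26 for Rb1, 0.25 and 0.33 for E2f3, 0.24 and 0.31 for E2f7, and 0.19 and 0.33 for Rbl2. Calls over all genes moved too, and with an array left out they ran from 249 without control array 1 to 1302 without knockdown array 3.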

How the data were processed

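Log2 expression values were used as deposited, 1 column per array. The authors made them with RMA and affy, as the submitters' processing notes list without versions. RMA normalises the arrays to one another, so a change shared by most genes may not be seen, although the deposited distributions were not fully equal. The values carry no detection call, and the number of arrays limits the precision. Amplification started from 100 ng of RNA, per the labels. Of 34760 probe sets, 21640 had 1 gene symbol in GEO's platform annotation. The probe set with the highest mean stood for a gene, without a filter on signal.

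A linear model with group as its term was fitted in limma 3.58.1 (R 4.3.3, lmFit and eBayes) over 19937 genes, with Benjamini-Hochberg adjustment over all of them. It was tested on simulated data. Alternatives were a replicate block, each array left out, brighter genes, other variance priors, array weights, probe set means, other scalings and all probe sets. Exact permutation tests used scipy 1.17.1. The members, the lists and the alternatives were chosen with earlier results of these data known. Named genes are all members, called genes of each list and up to 4 of its genes with the largest absolute statistic, and the 3 nearest profiles of Rbl1, Rbl2 and E2f7.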

Additional observations from a re-analysis of the deposited data

How the results depend on the processing

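The fit was repeated under 15 settings. Trim71 was called in all 15, with log2 fold changes from −1.55 to −1.51. The count of 4 higher members went to 0 with the replicate block, 0 without variance moderation and 1 with all probe sets tested. It was 2 with arrays centred on their medians, and 0 to 2 with an array left out. With probe set means it was 3, and with brighter genes or array weights 5. Calls over all genes went from 5.53% to 1.40% with the replicate block, 2.07% without variance moderation and 1.56% with all probe sets. They were 5.73% with arrays centred on their medians, 5.49% with probe set means, 19.0% among brighter genes and 10.9% with array weights. No member was called lower under any of the 15. Deviations of same-numbered control and knockdown arrays had r = −0.02, −0.15 and −0.24 over genes, and differently numbered ones −0.23 to 0.28. With 3 arrays per group these values cannot show whether the number marks a shared batch. The replicate block also took the genes called in the pathway lists from 10 to 2, and calls over all genes to 171 higher and 108 lower. With an array left out the lists held 1 to 7 called genes. Without knockdown array 3 E2f6 was at −0.01, in a range of −0.01 to 0.12. The Rbl1 call was lost with the replicate block (adjusted p = 0.0632). The change of Rb1 minus that of Rbl2 was 0.07 without knockdown array 2, in a range of −0.09 to 0.07. A fit of 5 arrays has fewer samples, the test over all probe sets adjusts over more features, and for the other settings the cause was not tested.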
